A study of Mus musculus with 2 samples.

Results

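The 10 genes Syk, Lyn, Blk, Blnk, Plcg2, Prkcb, Vav1, Pik3cd, Pik3ap1 and Bank1 encode kinases, lipid-signalling enzymes and adaptors that act directly below the B cell receptor. They were chosen by name, as 10 of 22350 protein-coding genes in GENCODE release M1, and their chromatin was described by every DNase I hypersensitive site (DHS) in the gene body or within 50 kb of it. These windows held 208 of the 47542 DHS of the series. The cells were splenic B cells, enriched with magnetic beads for B220 from mice of strain C57/Bl6 with an intact p53 gene (Trp53+/+), 8 weeks of age and mock treated. DNase I cuts DNA that is not wrapped around nucleosomes more readily than packed DNA, and DHS are stretches where such cuts were concentrated. All values came from 1 DNaseI library of this single group, and the second sample, an input library of the same cells, was not analysed here. There are no replicates, so counts, shares and scores are descriptions, and the intervals given are exact 95% binomial intervals that cover counting error only.

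When antigen clusters the B cell receptor, the Src-family kinases Lyn and Blk phosphorylate its Ig-alpha and Ig-beta chains, and the kinase Syk docks on the phosphorylated chains and becomes active. Syk phosphorylates the adaptor Blnk (SLP-65), on which the phospholipase Plcg2 and the guanine nucleotide exchange factor Vav1 assemble. Plcg2 generates the messengers that release calcium and activate the protein kinase C isoform Prkcb, which leads on to NF-kappaB. In a parallel branch, the adaptors Pik3ap1 (BCAP) and Bank1 couple the receptor complex to further kinases, with Pik3ap1 recruiting PI3-kinase, whose catalytic subunit p110-delta is encoded by Pik3cd.

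Each DHS carried a score from the authors' peak caller, on a scale that is not stated. Over the whole list scores ran from 5.05 to 619.44 with a median of 32.65. The sequencing depth behind the list is unknown, so where no DHS is given, none was called and closed chromatin is not shown. In a bulk preparation, fewer cells with open chromatin at a site cannot be told apart from weaker accessibility in each cell. A DHS counted as promoter DHS if any base of it fell between 5 kb before and 2 kb after an annotated transcription start site (TSS). Positions refer to mouse build mm9, and distances are those of the DHS centre from the most 5′ start of the gene, negative when upstream.

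All 10 genes had a promoter DHS (10 of 10, interval 69.2 to 100%), against 57.0% of all protein-coding genes. In all 10 a DHS also lay directly over an annotated start, against 46.6% of all genes, and in all 10 the promoter DHS reached the median score of the list, against 50.3%. The highest promoter score of each gene ranged from 110.31 at Blk to 349.72 at Pik3cd, with a median of 206.17. The median over all protein-coding genes with a promoter DHS was 101.22, below the lowest of the 10. The genes fell into an upper range of Pik3cd (349.72), Lyn (281.11), Vav1 (239.31), Syk (232.16) and Pik3ap1 (230.53), a middle range of Blnk (181.81) and Plcg2 (171.94), and a lower range of Bank1 (113.68), Prkcb (111.98) and Blk (110.31). With 1 library, no error is available to say which neighbours in this order differ.

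A promoter rich in CpG dinucleotides is accessible in many cell types, so the base composition of the starts was recorded. Only Syk, Lyn and Plcg2 had a CpG-rich start, defined over 1000 bp as 55% GC or more together with a CpG ratio, observed over expected, of 0.6 or more. The other 7 genes had CpG-poor starts by this definition and had a promoter DHS in 7 of 7 cases. Of the 13740 protein-coding genes with a CpG-poor start, 39.2% had one. Prkcb (57.1% GC, ratio 0.571) and Pik3ap1 (61.1%, 0.561) met the GC limit and lay just under the ratio limit of 0.6. These 2 starts are therefore CpG-poor by a narrow margin only. The bases just before the start of 3 genes are shown because they hold words that B cell transcription factors are known to bind. Capitals mark exact matches, on either strand, to the octamer word ATGCAAAT at Blnk, to the PU.1 word GAGGAAGT at Syk and Vav1, and to the GC box GGGCGG. Each line gives the 150 bp before the most 5′ start, 5′ to 3′ on the strand of the gene, at chr19:41069026-41069175 (minus strand) for Blnk, chr13:52678392-52678541 (plus strand) for Syk and chr17:57418373-57418522 (plus strand) for Vav1.
Blnk: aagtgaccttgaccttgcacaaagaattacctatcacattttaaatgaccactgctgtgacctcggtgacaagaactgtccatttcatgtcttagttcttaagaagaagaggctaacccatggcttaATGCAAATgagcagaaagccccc
Syk: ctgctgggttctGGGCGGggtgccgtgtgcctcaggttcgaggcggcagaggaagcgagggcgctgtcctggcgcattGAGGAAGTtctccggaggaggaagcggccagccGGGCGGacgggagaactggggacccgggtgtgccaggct
Vav1: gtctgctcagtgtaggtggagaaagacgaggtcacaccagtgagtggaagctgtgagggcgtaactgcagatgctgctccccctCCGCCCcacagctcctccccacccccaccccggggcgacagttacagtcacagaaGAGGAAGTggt
The octamer word was present in this stretch at 2 of the 10 genes and at 1.02% of all protein-coding genes, and the PU.1 word at 2 of 10 and at 1.56%. With 10 genes the exact interval of each share is wide, from 2.52 to 55.6%. The GC box was present at 5 of the 10, among them Syk and Vav1, and at 35.5% of all genes. Of the other 8 words searched, the E-box CAGGTG was present at 3 of the 10 (10.4% of all genes), and the ETS-IRF word GGAANNGAA (3.84%) and the IRF word GAAANNGAA (4.19%) at 1 each. The EBF word CCCNNGGGA (3.74% of all genes), the RUNX word TGTGGTT (2.48%), the NF-kappaB word GGANTTTCC (0.729%), the E-box CAGCTG (7.51%) and the CTCF word AGGGGGC (8.24%) were at 0 of 10, for which the exact interval reaches 30.8%. A match is a description of the letters and was not taken as a binding site.

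**Figure D1:**
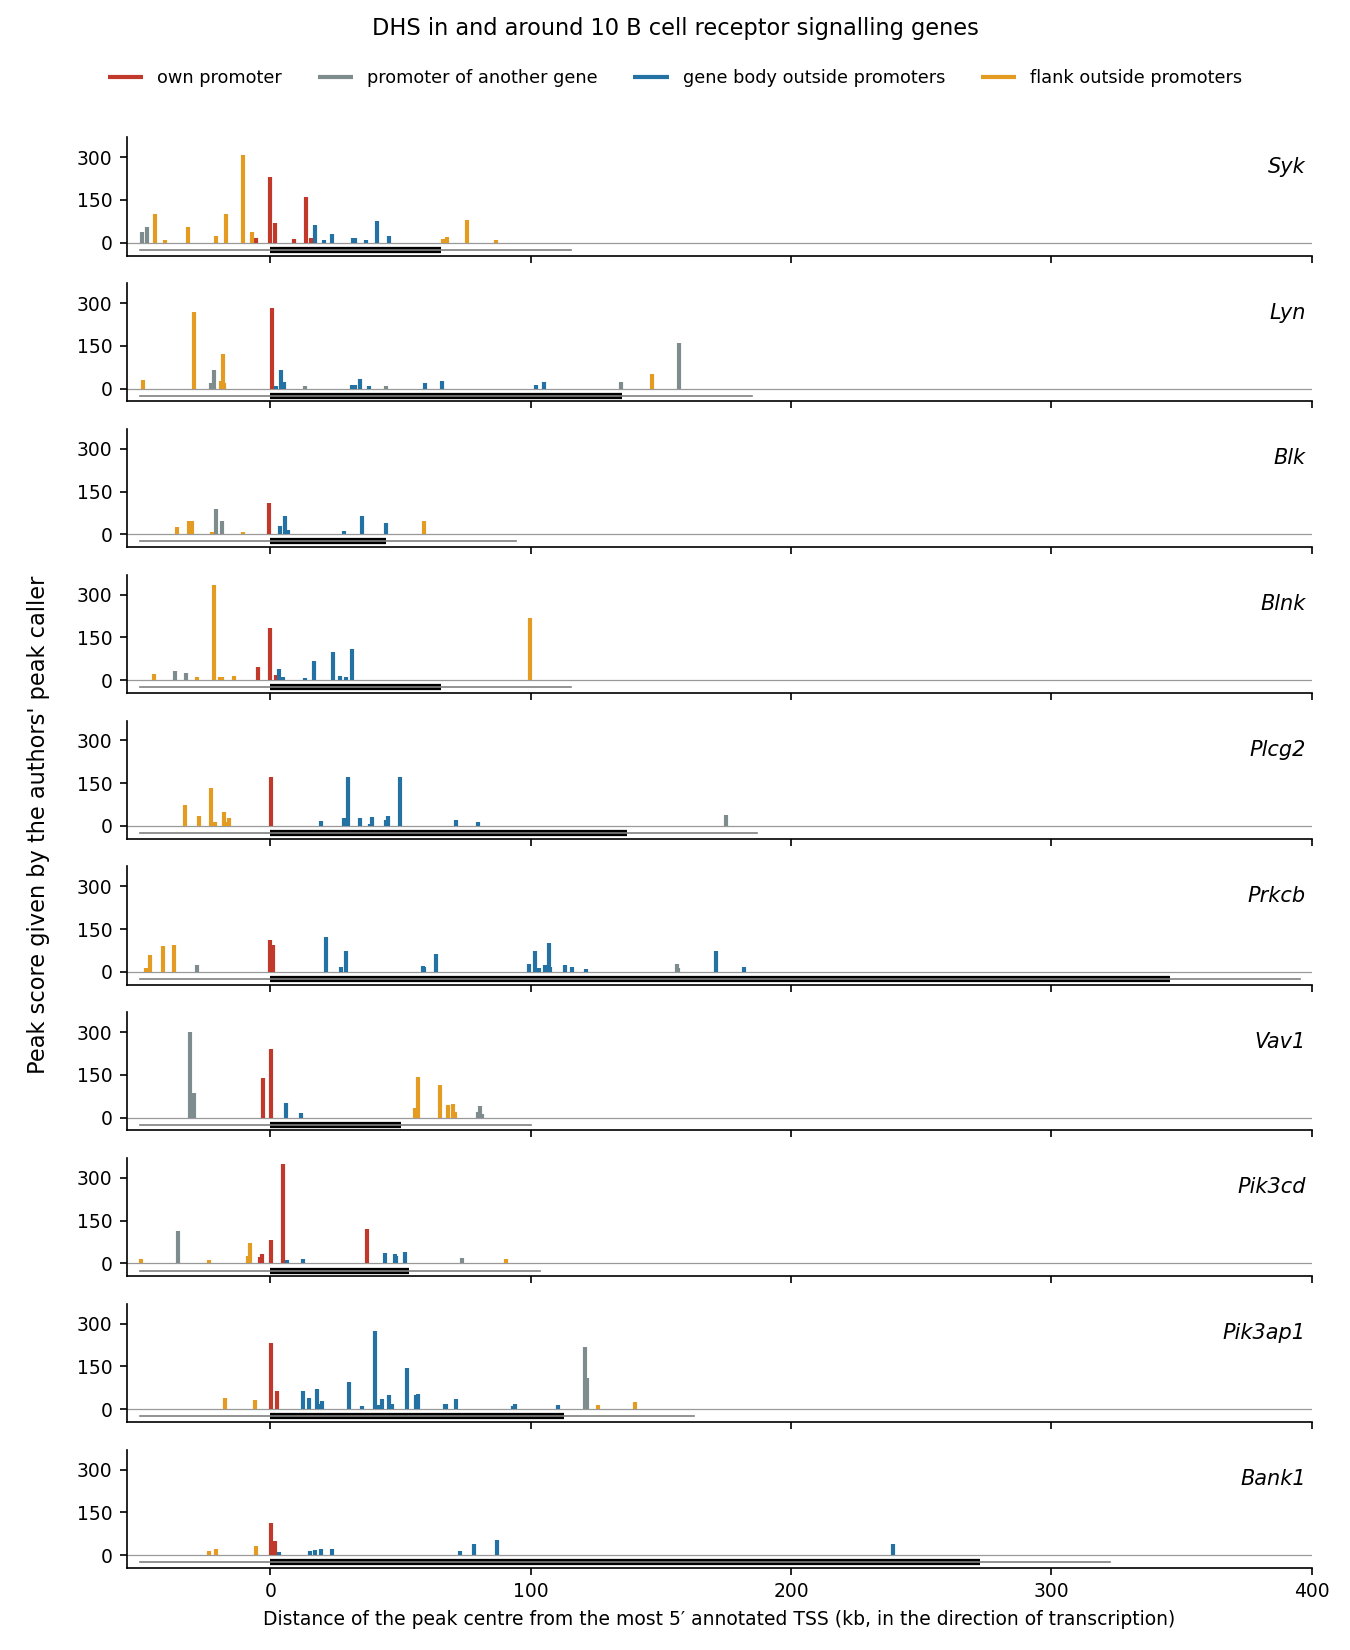
Map of the 208 DHS around the 10 genes. Each vertical line is a DHS, placed by the distance of its centre from the most 5′ TSS (kb, x axis) with its score as height (y axis) and coloured by place, while the thick black bar is the gene body and the thin line the window of 50 kb either side. Syk, Blnk, Prkcb and Pik3ap1 each have a DHS outside promoters that is higher than their own promoter DHS, such as the DHS of 332.65 upstream of Blnk against 181.81 at its promoter.

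Of the receptor-proximal kinases, Lyn had 24 DHS in its window, of which 11 lay in the gene body outside promoters. Its promoter DHS (chr4:3604524-3607244) scored 281.11, higher than in 95.1% of genes with a promoter DHS, and covered 3 of its 4 annotated starts. The internal start at 78.3 kb had no DHS within 1 kb. A DHS outside promoters with nearly the same score, 269.73, lay at -29349 bp (chr4:3573788-3578039), closer to the start of 2210414B05Rik, at 7742 bp, than to that of Lyn. Inside the gene, the highest score was 63.89 at 4127 bp. Beyond the 3′ end, at 156798 bp, a DHS in the promoter region of another gene scored 160.15.

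Blk, the other Src-family kinase of the set, had 15 DHS and the lowest promoter score of the 10 (110.31, chr14:64034190-64038968), although that DHS was broad at 4779 bp. Its promoter score exceeded 55.4% of genes with a promoter DHS, close to the middle of that distribution. Outside promoters the highest score was 64.84 in an intron at 5538 bp (chr14:64029766-64031207). The gene is the shortest of the set at 44.35 kb and had 6 DHS in its body outside promoters, more than 98.2% of the 3741 genes of similar length (within 1.5 times).

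Syk had 27 DHS, 16.3 per 100 kb of window, the densest of the 10 windows, with DHS covering 19.6% of the sequence. The list as a whole had 1.80 DHS per 100 kb and covered 1.67% of the chromosomes. All 5 annotated Syk starts were covered, 3 of them by the DHS of 232.16 (chr13:52677252-52679602) and the other 2, at 13.7 and 13.8 kb, by a separate DHS of 161.3. The strongest site of the window was upstream of both, at -10298 bp, with a score of 306.69 and a width of 3048 bp (chr13:52666721-52669768). The DHS followed each other closely, as 18 in a row were each less than 10 kb from the next. Blnk, with 19 in a row, and Pik3ap1, with 21, had longer chains.

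Among the adaptors on which the signal assembles, Blnk had 20 DHS. Its broad promoter DHS of 4412 bp (chr19:41067059-41071470) scored 181.81 and covered both starts. The strongest site lay at -21796 bp (chr19:41090068-41091574) with 332.65, the rank of 307 in the whole list, and its nearest annotated start was that of Dntt, 12944 bp away, which encodes terminal transferase. A further DHS of 217.01 lay downstream, at 99688 bp, where the nearest start was that of Zfp518a. Of the 8 DHS inside Blnk, those at 31316, 24135 and 16652 bp scored 109.34, 97.49 and 65.51, and 4 of the other 5 scored between 9.11 and 15.04.

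Vav1 had 15 DHS and the fewest inside the gene, 2 outside promoters (52.76 and 15.19) in 50.1 kb. Per length, at 0.399 per 10 kb, this was above Bank1 (0.330) and below the other 8. The count of 2 was more than in 80.0% of 3528 genes of similar length. Its promoter held a pair of strong sites, 239.31 over the start (chr17:57417738-57420186) and 138.65 at -2912 bp. The 3 internal starts, at 24.0, 32.8 and 32.8 kb, were not covered. The strongest DHS outside promoters, 143.9 at 56668 bp (chr17:57474417-57475966), lay beyond the 3′ end and nearest, at 22918 bp, to the start of Emr1, which encodes the macrophage antigen F4/80. The highest score in the window, 298.92, belonged to the promoter of Gpr108.

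Plcg2 had 20 DHS and 3 sites of nearly equal score. The promoter DHS scored 171.94 (chr8:120021765-120023472), and sites in introns at 29992 bp (chr8:120051217-120053149) and 49880 bp (chr8:120071605-120072538) scored 171.37 and 170.18. Another site, at -22699 bp, scored 134.13. The remaining 9 DHS inside the gene scored 8.26 to 33.21. The last 57.1 kb of the gene body held no DHS, and 7.02% of the window was covered in all.

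Prkcb, the longest gene of the set at 345.65 kb, had 26 DHS, 17 of them in introns outside promoters. Its most 5′ start was covered by a DHS of 111.98 (chr7:129431671-129432609) and the start at 1.28 kb by a neighbouring DHS of 93.46, while the starts between them, at 0.546 and 0.558 kb, lay under neither. The highest score of the window, 121.84, was in an intron at 21534 bp (chr7:129453089-129454510), and a chain of 9 sites between 99370 and 121241 bp included 1 of 100.19 at 107018 bp. The last 163.2 kb of the gene body held no DHS, and the starts at 127.3 and 311.2 kb were not covered either. The number of DHS inside Prkcb exceeded that of 96.1% of 589 genes of similar length.

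In the PI3-kinase branch, Pik3cd had the highest promoter score of the 10. The score of 349.72 ranked 243 in the whole list and belonged to a DHS (chr4:149070500-149073357) over 4 starts that lie 3.86 to 4.02 kb inside the most 5′ start, which itself was covered by a DHS of 81.44. The starts of this gene were thus unequal in score, and the 5 further inside, at 26.5 to 39.3 kb, were not covered. A DHS of 120.64 lay at 37137 bp, within the promoter region of the innermost start. Outside promoters the highest score was 70.43 at -7951 bp (chr4:149084398-149084865).

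Pik3ap1 had 29 DHS, more than 99.8% of protein-coding genes, and 21 of them were inside the gene outside promoters, more than in 99.9% of 2077 genes of similar length. Its promoter DHS scored 230.53 (chr19:41458069-41460290). A DHS in an intron at 40051 bp (chr19:41418572-41420498) scored 273.17, higher than 99.8% of the 12176 DHS inside protein-coding genes outside promoters, and another at 52659 bp, over an exon, scored 144.51. The DHS formed a chain of 21 with less than 10 kb between neighbours. The other 19 DHS inside the gene scored 11.57 to 94.33.

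Bank1 was at the other end. It had 14 DHS over a window of 372.7 kb, 3.76 per 100 kb and 2.49% of the sequence, the lowest values of the 10 and still above the 1.80 per 100 kb of the list. Its promoter DHS scored 113.68 (chr3:135988438-135989225), with a second of 48.5 at 1640 bp. The highest score outside promoters was 52.93 in an intron at 87020 bp (chr3:135901396-135902624), and a gap of 151.3 kb within the gene held no DHS. It had 9 DHS inside the gene, more than in 89.4% of 763 genes of similar length.

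At 4 genes the strongest site outside promoters outscored the promoter of the gene itself, and these 4 sites are given as the central 300 bp of the DHS, plus strand, 5′ to 3′, with exact matches to 11 words for B cell and general transcription factors in capitals. They lie at chr13:52668094-52668393 upstream of Syk, chr19:41090671-41090970 upstream of Blnk, chr7:129453649-129453948 in an intron of Prkcb and chr19:41419385-41419684 in an intron of Pik3ap1, and none overlaps an annotated exon.
Syk upstream: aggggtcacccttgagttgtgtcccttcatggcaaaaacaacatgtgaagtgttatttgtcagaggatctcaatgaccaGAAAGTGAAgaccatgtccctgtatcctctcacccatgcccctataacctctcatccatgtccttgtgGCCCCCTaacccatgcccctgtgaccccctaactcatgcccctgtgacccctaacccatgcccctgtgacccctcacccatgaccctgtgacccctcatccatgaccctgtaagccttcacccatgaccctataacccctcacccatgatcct
Blnk upstream: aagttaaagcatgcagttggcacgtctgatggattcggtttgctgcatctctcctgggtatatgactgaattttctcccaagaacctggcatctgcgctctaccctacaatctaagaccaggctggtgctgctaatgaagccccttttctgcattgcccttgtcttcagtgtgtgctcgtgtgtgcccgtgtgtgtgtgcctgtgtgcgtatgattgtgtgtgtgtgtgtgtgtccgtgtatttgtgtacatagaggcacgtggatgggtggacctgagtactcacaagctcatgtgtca
Prkcb intron: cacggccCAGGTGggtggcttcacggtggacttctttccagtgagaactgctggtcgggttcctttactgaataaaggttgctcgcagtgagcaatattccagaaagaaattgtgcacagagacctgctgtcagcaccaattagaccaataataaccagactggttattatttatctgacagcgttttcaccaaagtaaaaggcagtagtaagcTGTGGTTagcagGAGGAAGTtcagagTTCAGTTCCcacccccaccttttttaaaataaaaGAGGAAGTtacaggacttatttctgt
Pik3ap1 intron: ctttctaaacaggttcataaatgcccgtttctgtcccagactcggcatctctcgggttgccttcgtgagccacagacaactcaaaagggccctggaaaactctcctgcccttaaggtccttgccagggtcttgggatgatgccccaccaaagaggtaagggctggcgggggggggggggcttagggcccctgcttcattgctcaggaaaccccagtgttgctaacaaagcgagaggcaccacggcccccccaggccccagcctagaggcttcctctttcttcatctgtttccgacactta
The Prkcb site held the PU.1 word GAGGAAGT in 2 places, the RUNX word TGTGGTT, the ETS-IRF word GGAANNGAA and the E-box CAGGTG. The Syk site held 1 IRF word, GAAANNGAA, and 1 CTCF word, AGGGGGC. No word was found at the Blnk and Pik3ap1 sites, although both had high scores. The Syk stretch repeats a short unit many times, and 40.3% of its overlapping 8-base words occurred more than once, above the share in 99.5% of all DHS, where the median was 1.37%. The Blnk stretch contains a run of TG dinucleotides, with 7.85% of its 8-base words repeated, while the Prkcb and Pik3ap1 stretches were at 1.37 and 2.05%. Whether the repeats affected the score was not tested.

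**Figure D2:**
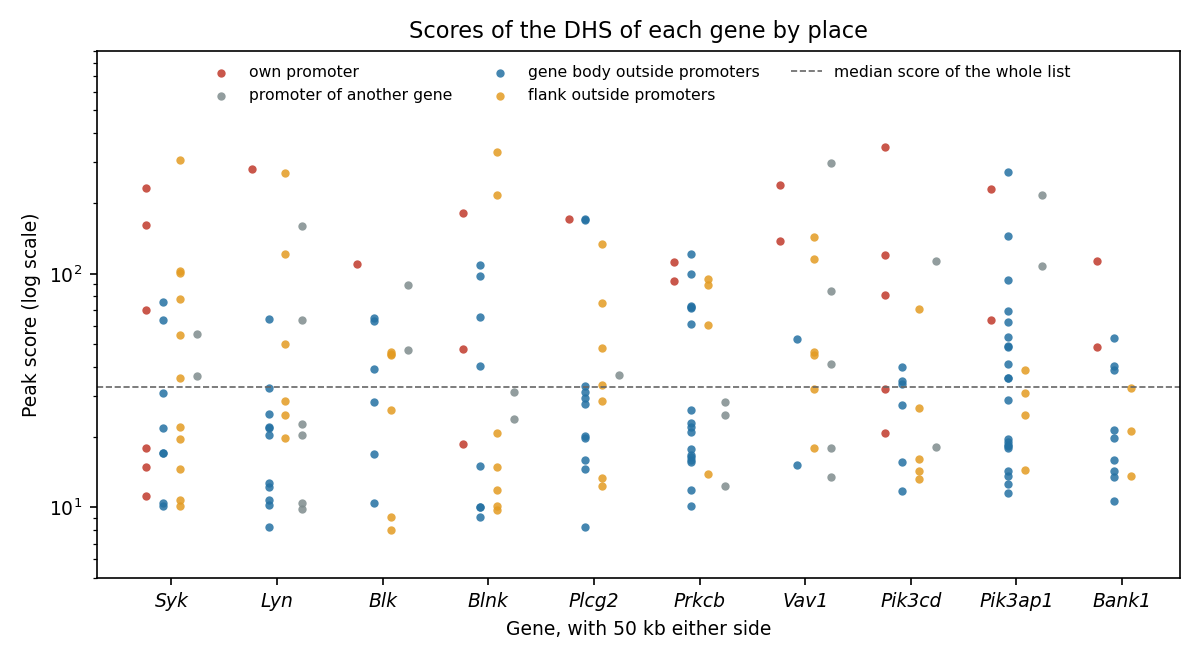
Score of each of the 208 DHS (y axis, log scale) for each gene (x axis), coloured by place, with the median score of the whole list, 32.65, as a dashed line. Own promoter DHS, with a median of 110.31, mostly lie above the line, whereas 37 of the 99 DHS in gene bodies outside promoters reach it, the highest at Pik3ap1 (273.17) and Plcg2 (171.37).

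The 208 DHS were then divided by place. Own promoters held 25, promoters of other genes another 25, gene bodies outside promoters 99, upstream flanks 43 and downstream flanks 16. Promoter DHS were therefore 24.0% of the total (interval 18.4 to 30.4%). In the windows of 4972 protein-coding genes within the length range of the 10, 49.1% of DHS were at promoters, and in the 2973 of these that had a promoter DHS at or above the median score the share was 49.9%. The median number of DHS in a window was 20 for the 10 genes and 5 and 7 in these gene groups. Windows of neighbouring genes overlap, so these DHS are not independent observations.

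The scores of the DHS inside the genes were close to those of other genes. The 99 DHS inside the genes had a median score of 22.06 (quartiles 15.4 and 48.79) against 23.43 (15.22 and 39.86) for the 12176 such DHS in all protein-coding genes. Of all 208 DHS, 96 (46.2%, interval 39.2 to 53.2%) reached the median score of the list. The median score was 110.31 at own promoters, 36.39 at promoters of other genes, 36.79 in exons, 20.99 in introns, 28.68 in upstream flanks and 38.535 in downstream flanks. Own promoter DHS were also the widest, with a median of 1708 bp against 786.5 bp for all 208.

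**Figure D3:**
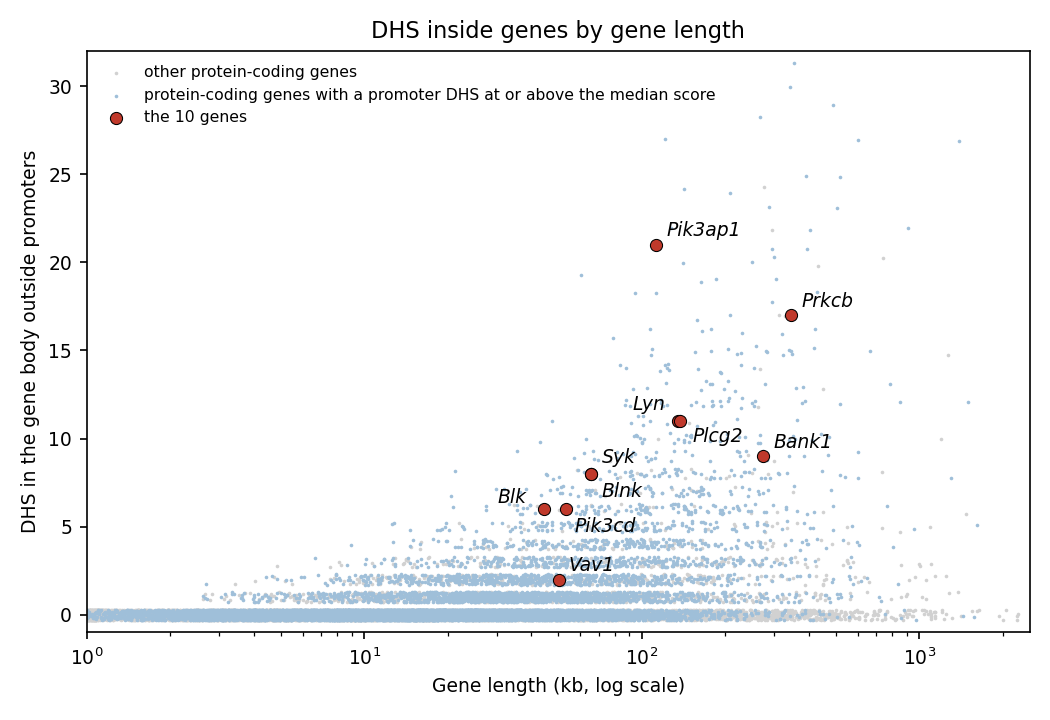
DHS in the gene body outside promoters (y axis) against gene length (kb, log scale, x axis) for protein-coding genes, with small vertical jitter for genes other than the 10. The plot leaves out 1890 genes shorter than 1 kb and 3 genes with more than 32 DHS. Pik3ap1, with 21 DHS in 112.7 kb, stands at the upper edge of genes of its length, and Vav1, with 2 in 50.1 kb, near the bulk.

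Longer genes offer more room for DHS, and each gene was therefore set against genes of similar length. The share of such genes with fewer DHS inside was 80.0% for Vav1, 89.4% for Bank1 and between 96.1 and 99.9% for the other 8. When only genes with a promoter DHS at or above the median score were used, the shares were 75.0% for Vav1, 78.8% for Bank1 and 92.3 to 99.8% for the others. Vav1 and Bank1 were thus the least distinct of the set in this respect.

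Across the 40 annotated starts of the 10 genes, 27 lay under a DHS and 29 within 1 kb of one. The 13 starts without cover were at Pik3cd (5), Prkcb (4), Vav1 (3) and Lyn (1). At Syk, Blk, Blnk, Plcg2, Pik3ap1 and Bank1 every annotated start was covered.

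Most of these genes have close relatives that serve other receptors or cell types, such as Zap70 for Syk and Lcp2 (SLP-76) for Blnk in T cells. The 18 relatives comprised 16 with a promoter DHS (88.9%, interval 65.3 to 98.6%), and Zap70 and Clnk had none. Their median highest promoter score was 89.72, with a range from 15.37 to 168.57. In all 16 pairs where both genes had a promoter DHS the gene of the set had the higher score. Blnk had 181.81 and Lcp2 15.37, Pik3cd 349.72 and the widely expressed Pik3cb 85.99, and Plcg2 171.94 and Plcg1 65.43. The scores were close for Prkcb and Prkca (111.98 and 110.49) and for Blk and Lck (110.31 and 92.81), and no replicates are available to separate them. As the scale of the score is not stated, no ratios of scores are given.

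Among the Src-family relatives of Lyn, the promoter score was 94.27 at Fyn, 92.49 at Fgr, 86.95 at Src and 63.54 at Yes1. Pik3ca had 168.57 and Pik3cg 86.58, Vav2 140.35 and Vav3 128.16, and Prkcq, the T cell isoform PKC-theta, 28.33. At Lck, the score of 92.81 came from a DHS away from the start, and the DHS over a start scored 41.42. In number of DHS, the gene of the set had more in its window in 16 of 18 pairs. The exceptions were Blk with 15 against 17 at Lck and Vav1 with 15 against 28 at Vav2, which also had 16 DHS inside the gene against 2. The density of DHS inside the gene was higher at the gene of the set in 15 of 18 pairs and lower in 3, among them Syk against Zap70 (1.22 and 1.43 per 10 kb) and Vav1 against Vav2 (0.399 and 0.970).

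**Figure D4:**
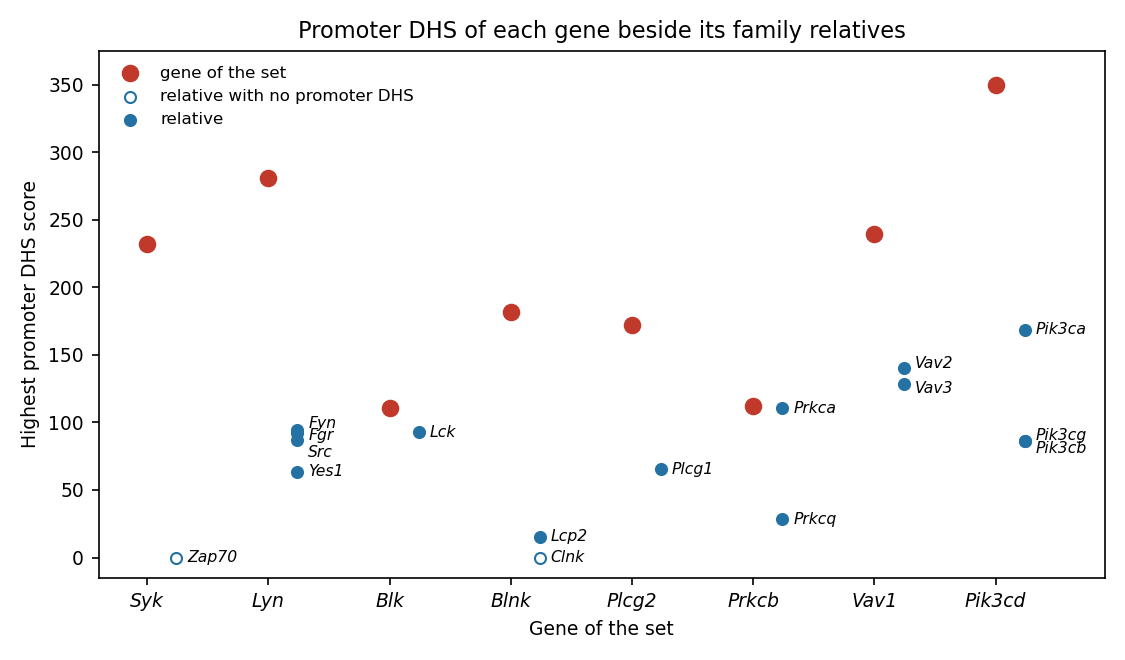
Highest promoter DHS score (y axis) of the 8 genes of the set that have listed relatives (red) and of 16 of their 18 relatives (blue, x axis by gene of the set), with open circles at 0 for Zap70 and Clnk, which had no promoter DHS called. Each red point is above all blue points of its column, with the closest pair at Prkcb (111.98) and Prkca (110.49).

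Other genes of the pathway also had open promoters. All 31 further genes, among them Btk, Malt1, Cbl, Nfatc1 and Stim1, had a promoter DHS (interval 88.8 to 100%), in 29 cases over a start, with scores from 48.78 at Lat2 to 332.33 at Dapp1 and a median of 168.57. Btk, the kinase that acts with Blnk on Plcg2, had a highest promoter score of 85.06, below all 10 genes. That DHS lay away from the start, and the score was 31.96 within 1 kb of a start and 23.43 directly over one, both under the median of the list. The list shares 4 genes with the relatives, among them Fyn, Fgr and Pik3ca. The median number of DHS was 13 per window and 3 inside the gene for the 31, against 20 and 8.5 for the 10, whose median length was 89.2 kb against 59.4 kb.

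The words were counted in the central 300 bp of all 208 DHS, on both strands, beside the same share over the 47474 DHS on chromosomes 1 to 19 and X. The RUNX word TGTGGTT was in 11.5% (interval 7.53 to 16.7%) against 6.79% of the list, and the GC box GGGCGG in 9.62% (5.97 to 14.5%) against 18.7%. Outside promoters the RUNX word was in 12.7% (7.91 to 18.9%) against 8.42%, and the GC box in 5.70% (2.64 to 10.5%) against 7.43%, so that there both intervals held the value of the list. The other 9 words had intervals that included the share of the list. They were the PU.1 word (5.29% and 3.61%), ETS-IRF (9.62% and 9.32%), IRF (8.65% and 9.26%), the EBF word CCCNNGGGA (4.33% and 6.62%), the octamer (1.92% and 1.64%), the E-boxes CAGGTG (23.6% and 24.1%) and CAGCTG (19.7% and 17.5%), the CTCF word (5.29% and 8.07%) and the NF-kappaB word GGANTTTCC. The NF-kappaB word was in 0 of 208, which allows a share of up to 1.44% when 3 counts are taken as the limit and 1.76% by the exact interval, against 1.24% of the list, and over whole peaks it was in 8 of 208. The ETS-IRF word can overlap the PU.1 and IRF words, so these are not separate counts.

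The labelled cell type was checked at marker genes. Promoter DHS were present at 7 of 7 B cell genes, with highest scores of 83.97 to 269.18, and at 0 of 7 T cell genes, including Cd3e, Cd4 and Cd8a. They were present at 3 of 6 myeloid genes, Cd14 (51.05), Emr1 (41.05) and Itgam (18.16), with none at Csf1r, Lyz2 and Mpo, and at 2 of 4 NK and erythroid genes, including Klrb1c (25.96), with none at Ncr1 and Alas2. Syk, Lyn, Plcg2, Vav1, Pik3cd and Pik3ap1 are also used by myeloid cells, and the part of such cells in their scores, all 171.94 or higher, was not tested.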

How the data were processed

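The series holds 2 samples, 1 DNaseI library and 1 input library, and processed data of the DNaseI library were used. The authors digested nuclei with several amounts of DNase I, sequenced the digest with the best qPCR contrast and called peaks. The deposited list gives each peak a position, a MACS-type name and a score, which is the authors' value on a scale that is not stated. Per the submitters' processing notes, BWA 0.6.2, SAMtools and build mm9 were used. The caller's version and settings for this library are not given in the sources used here, and those of the ChIP-seq were not assumed. Depth is unknown. Only 1 peak passed a chromosome end of NCBI build 37.

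Peaks on chromosomes 1 to 19 and X (47474 of 47542) were joined to GENCODE M1 by an overlap of at least 1 bp, with Python 3.11.15, pandas 2.3.3, pysam 0.24.0 and scipy 1.17.1. Of the entries of all lists, 81 matched by symbol and 2 by synonym (Syk is annotated as Sykb). The entries stand for 79 different genes, as some genes are in more than 1 list. A gene table on a later build served for names only, and sequences were read from NCBI build 37. The scripts were tested on simulated peaks. With 1 library there was no test. Some genes of the lists and 1 sequence were counted but are not reported here.

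The genes, lists and words were chosen with earlier results of these data known. All 10 genes are named with their highest promoter DHS and their highest DHS outside promoters. Relatives may be named with their gene. In the other lists, if under 6 genes lacked a promoter DHS these were to be named, and if not, the genes with one if these were under 6. Further genes and DHS were named after their values were seen. Alternatives were a promoter of 1 kb either side of the start, the peak centre in the promoter, peaks at or above the median score, a flank of 10 kb, starts of protein-coding genes only, peaks closer than 500 bp merged, no peaks of the lowest width, and words over the whole peak.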

Additional observations from a re-analysis of the deposited data

How the results depend on the processing

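The 10 genes and the 31 further pathway genes all had a promoter DHS under each promoter definition tried and with peaks at or above the median score only, and the relatives had one in 16, 16 and 14 of 18 cases. The median highest promoter score stayed at 206.17 under the definitions tried. The counts and shares depended on the settings more. When weaker peaks than the median score were left out, the windows held 96 DHS instead of 208 and the gene bodies 37 instead of 99, while the flank of 10 kb gave 142 and merging gave 163 and 77. The promoter share of 24.0% became 12.5% within 1 kb of a start, where windows of genes as long gave 37.3%, and 33.3% with peaks at or above the median score, where those windows gave 64.1%. Under the other settings it was 20.2 to 23.1%. The words whose share lay outside the interval were 2 of 11 in the central 300 bp and 1 over the whole peak, the GC box. No paired analysis was possible because there was 1 library with peaks and no replicate. The unknown depth limits what the absence of a DHS can mean.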
